A study of Mus musculus with 54 samples.

Results

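Control spleen was profiled on 4 arrays, chosen by their tissue and treatment labels from the 54 arrays of the series, and set against the 23 control arrays of 6 other tissues. Those were visceral fat, subcutaneous fat, kidney, muscle and brain with 4 arrays each and liver with 3. All mice were C57BL6 by their genotype label and 14 weeks old, and their total RNA was a Trizol extract carrying a biotin label. The study set mice that swam for several weeks against control mice, and the labels do not say whether the controls were acclimated to water. The question here was which transcripts set the spleen apart from the other organs of the same control group. Swim arrays entered only as a separate set of spleens in which the same measure was taken, with no difference between swim and control read from it. The labels give no batch or date and do not say whether arrays came from separate mice, or tissues from the same mouse, so p-values measure the spread between these arrays, which may be technical.

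The spleen filters blood and houses lymphocytes. Its white pulp holds B cell follicles and T cell zones around small arteries, its marginal zone samples the blood stream, and its red pulp holds macrophages that take up old red cells and recycle their iron. In mice the red pulp also makes blood cells through adult life, with erythroid, megakaryocytic and granulocytic precursors in place, which is far less marked in adult humans.

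Levels are log2(signal + 16), quantile normalized over the 27 control arrays, a scale that understates differences of genes of low signal. Each of 18759 genes was given the spleen mean less the highest mean of another tissue, called its difference below, and was said to be highest in spleen where all 6 contrasts were above 0 and the largest limma p passed 0.05 after adjustment over all genes. By that rule 1478 genes, or 7.88%, were highest in spleen and 510, or 2.72%, were lowest. With subcutaneous fat left out, 2635 genes, or 14.0%, were highest. All 1478 were among these, and 1157 were called only without that tissue. Counts of list members called highest are to be read beside these shares, 7.88% with subcutaneous fat and 14.0% without. At least 2-fold differences were held by 466 genes (2.48%) with subcutaneous fat and by 1176 (6.27%) without it, and at least 8-fold differences by 44 (0.235%) and 299 (1.59%). The median difference over all genes was -0.57 with and -0.57 without subcutaneous fat, since for most genes another tissue was the highest. The split of calls into highest and lowest, 1478 against 510 or 74.3% highest, was 818 against 116 or 87.6% highest with the values as deposited.

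Subcutaneous fat was the second-highest tissue for 894 of the 1478 genes, or 60.5%, against 176 for liver, 146 for brain, 131 for muscle, 72 for visceral fat and 59 for kidney. In that tissue 3 of the 4 arrays stood apart. Glycam1, the mucin-like ligand made by high endothelial venules of lymph nodes, was at 13.76, 14.36 and 14.21 in subcutaneous fat arrays 18, 19 and 20, at 5.58 in array 17 and between 5.16 and 5.79 on all 23 arrays of the other tissues, spleen included. The 26 measured B cell genes averaged 10.89, 11.03 and 10.84 in those 3 arrays and 6.09 in array 17, and the 27 T cell genes 9.55, 9.92 and 9.85 against 5.40. Correlations between the 4 subcutaneous fat arrays ranged from 0.84 to 0.99, and their residual SD was 0.527, against 0.125 to 0.216 in the other tissues. With arrays 18 to 20 left out and array 17 kept, 2406 genes were highest in spleen.

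Spleen arrays differed less, with correlations from 0.980 to 0.996, but a pair of contrasts among them is carried through the results. Alb, the serum albumin gene of hepatocytes, was at 4.88, 12.50, 10.07 and 4.53 in spleen arrays 25 to 28, so arrays 26 and 27 lay above arrays 25 and 28 by more than 5 log2 units. Ctrb1, a digestive protease precursor of the exocrine pancreas, was at 7.79, 7.05, 10.64 and 9.36, highest in arrays 27 and 28, and below 6 on every array outside spleen. Without arrays 26 and 27 the count of genes highest in spleen was 1104, and without arrays 27 and 28 it was 1049. Lists for adipocytes (14 measured), hepatocytes (17), kidney tubule (11), neurons and glia (13) and skeletal muscle fibres (16) have their own organ among the tissues compared, so a count of calls says nothing of what the spleen arrays carry. The mean of the hepatocyte list was 4.80, 9.58, 7.10 and 4.75 in spleen arrays 25 to 28, against 12.77 to 12.88 in liver.

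**Figure D1:**
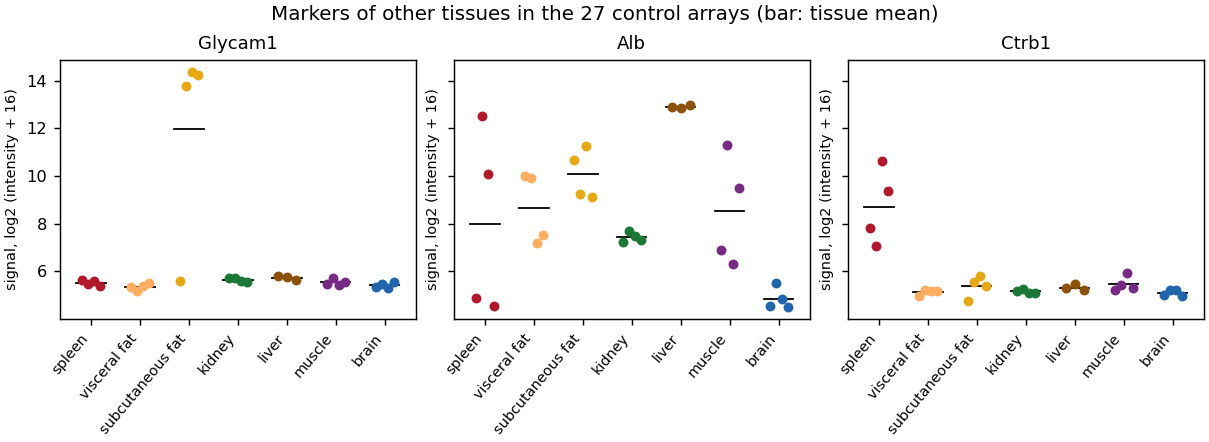
Level, as log2(intensity + 16), of Glycam1, Alb and Ctrb1 on each of the 27 control arrays, with points for arrays and bars for tissue means. Glycam1 was high on 3 of 4 subcutaneous fat arrays, Alb on 2 of 4 spleen arrays, and Ctrb1 was higher on all 4 spleen arrays than on any other array.

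Red cell genes led the spleen profile. Of the 30 genes with the largest differences, 12 belonged to the list of erythroid cells and haem synthesis, 5 to megakaryocytes and platelets, with 2 of them shared, and 2 to neutrophils. The erythroid list held 48 of the 18759 genes. Lists were chosen with earlier results of these data known, so this overlap is also no test. On all 30 genes every spleen array lay above all 23 other arrays, a pattern held by 1776 genes or 9.47% of all. The 30 were chosen by size on these same control arrays, which favours such a separation, so this is a description and not a test. All 30 were also called in the swim arrays, where the call rate was 13.2%. Of the 48 measured erythroid genes, 27 were highest in spleen with subcutaneous fat and 29 without, 0 were lowest, and the median difference was 1.0 and 0.99, so leaving out subcutaneous fat hardly moved them. A filter that left out the lowest 40% of probe sets removes members of many lists, and 15 erythroid, 8 platelet, 3 neutrophil and 0 eosinophil and mast cell genes were called with it.

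Several of the largest differences were those of blood group and membrane proteins of red cells. Kel (probe set 10544383), which encodes the Kell blood group protein, was at 11.45, 11.79, 11.52 and 11.29 in spleen and between 4.55 and 5.05 on all other arrays. The groups did not overlap, and the difference to visceral fat, the next tissue, was 6.60 ± 0.10 (SE, n = 4 arrays each, limma adjusted p = 2.45e-23), or 96.7-fold. Rhag, the Rh-associated glycoprotein that passes gases through the red cell membrane, was at 10.86, 11.18, 10.98 and 10.65 in spleen and at most at 4.77 elsewhere. Its difference was 6.20 ± 0.09. Rhd, the Rh blood group antigen, was at 11.10, 11.36, 11.10 and 10.83 in spleen and reached 6.06 in subcutaneous fat array 19 but at most 4.97 outside that tissue, giving 5.94 ± 0.20 with subcutaneous fat and 6.26 ± 0.11 without. Ermap, an erythroid membrane protein of the butyrophilin-related kind, had a difference of 6.06 ± 0.15, and Epb42, protein 4.2 of the membrane skeleton, of 5.57 ± 0.10. In Kel, Rhag, Rhd, Ermap and Epb42 alike, spleen array 26 was the highest of the 4 and array 28 the lowest.

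Several of these promoters could be read as sequence. The windows of 250 bases before the annotated start that follow are shown because these genes had among the largest differences and each holds AGATAA. That is a form of the GATA motif, the letters bound by the erythroid factor GATA1. The windows come from RefSeq on GRCm38.p6 and are written 5′ to 3′ in the direction of the gene. They carry this form in capitals, as AGATAA or, on the other strand, as TTATCT. Kel lies at chr6:41704326-41704575 on the minus strand, Rhd at chr4:134864286-134864535 on the plus strand, Epb42 at chr2:121036878-121037127 on the minus strand and Trim10, which encodes a tripartite motif protein of erythroid cells, at chr17:36869324-36869573 on the plus strand.
Kel: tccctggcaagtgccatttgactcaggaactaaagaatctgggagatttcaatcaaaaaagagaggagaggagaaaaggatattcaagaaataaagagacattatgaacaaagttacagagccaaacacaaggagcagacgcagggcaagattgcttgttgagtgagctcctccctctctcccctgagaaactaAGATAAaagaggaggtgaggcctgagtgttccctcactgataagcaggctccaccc
Rhd: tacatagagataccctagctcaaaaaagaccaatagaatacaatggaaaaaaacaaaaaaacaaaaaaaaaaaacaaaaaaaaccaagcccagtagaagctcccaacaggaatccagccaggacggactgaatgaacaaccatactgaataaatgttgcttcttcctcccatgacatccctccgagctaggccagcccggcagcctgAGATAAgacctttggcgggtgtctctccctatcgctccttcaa
Epb42: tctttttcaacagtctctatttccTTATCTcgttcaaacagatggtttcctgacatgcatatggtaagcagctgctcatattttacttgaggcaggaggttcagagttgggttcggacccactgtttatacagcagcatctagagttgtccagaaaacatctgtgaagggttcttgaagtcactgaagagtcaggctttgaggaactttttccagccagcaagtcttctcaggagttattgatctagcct
Trim10: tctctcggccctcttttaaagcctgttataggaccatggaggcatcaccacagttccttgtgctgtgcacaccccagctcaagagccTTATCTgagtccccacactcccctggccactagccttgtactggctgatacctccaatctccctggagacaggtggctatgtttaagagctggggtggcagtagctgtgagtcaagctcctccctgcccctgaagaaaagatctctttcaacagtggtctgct

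In these windows the motif began 56 bases before the start of Kel, 43 before Rhd, 226 before Epb42 and 163 before Trim10. Over windows of 300 bases (250 before and 50 after the start) and both strands, AGATAA was present in 14 of 53 promoters of the 37 erythroid genes with an entry, or 26.4%, in 6 of 27 promoters of neutrophil genes, or 22.2%, in 0 of 26 promoters of B cell genes and in 11.2% of all 32851 promoters. Promoters of Rhag and Ermap, also among the largest differences, held no AGATAA. Other forms of the GATA motif, such as TGATAA in the Kel window, were neither marked nor counted. Motif matches are descriptions of these letters and not of binding.

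The regulators of red cell formation were high as well. Gata1, the zinc finger factor needed for erythroid and megakaryocytic maturation, was at 9.62, 9.83, 9.65 and 9.66 in spleen and at most at 5.55 elsewhere, a difference of 4.42 ± 0.10. Nfe2, a basic leucine zipper factor of globin loci and platelets, differed by 3.97 ± 0.14, Hemgn, a nuclear protein of blood progenitors, by 3.63 ± 0.13, and Gfi1b, a repressor partnered with GATA1, by 2.96 ± 0.11. Klf1, the factor that switches on adult globin, was at 9.41, 9.71, 9.49 and 9.37 in spleen and at 6.93, 6.79 and 6.99 in liver, which was next at a difference of 2.59 ± 0.17. Epor, the erythropoietin receptor, differed by 2.37 ± 0.16. Tal1, a helix-loop-helix factor of blood stem cells, differed by 0.86 ± 0.12 from muscle. All of these passed the limma threshold.

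Other erythroid genes were shared with a second organ. Slc4a1, the band 3 anion exchanger that red cells share with acid-secreting cells of the kidney, was at 12.55, 12.77, 12.31 and 12.09 in spleen and at 9.16, 8.99, 9.05 and 9.26 in kidney. The groups did not overlap and the difference was 3.31 ± 0.13, while every other tissue stayed below 6. Alas2, the erythroid enzyme of the entry step of haem synthesis, was at 11.33, 11.51, 11.51 and 11.46 in spleen and between 10.33 and 10.57 in liver, a difference of 0.99 ± 0.17 (limma adjusted p = 0.000263). Among later haem enzymes, differences were 1.40 for Ppox, which passed, and 0.25 for Fech, 0.14 for Urod and 0.10 for Cpox, which did not. Fech passed without subcutaneous fat (limma adjusted p = 0.0103). Tfr2, the transferrin receptor of hepatocytes and erythroid cells, was highest in liver, by 4.27 over spleen. Ctse, the aspartic protease cathepsin E, had the largest difference of all genes at 6.96 ± 0.46. It was at 14.36 on all 4 spleen arrays, because it held the same rank on each and quantile normalization gives that rank the same value, and kidney was next with 9.98 in array 11 and 6.47 to 6.63 in the other 3 kidney arrays. Globin genes were not analysed here.

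Membrane proteins made up several more of the 30 largest differences. Cldn13, a claudin in the erythroid list, differed by 4.12 ± 0.19. Outside the list, Tspo2, an erythroid relative of the translocator protein, differed by 4.53 ± 0.18, Btnl10, a butyrophilin-like protein, by 4.12 ± 0.13, and Mfsd2b, the exporter of sphingosine-1-phosphate from red cells and platelets, by 3.84 ± 0.08. Slc38a5, a glutamine transporter, was next highest in brain and differed by 4.01 ± 0.15.

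**Figure D2:**
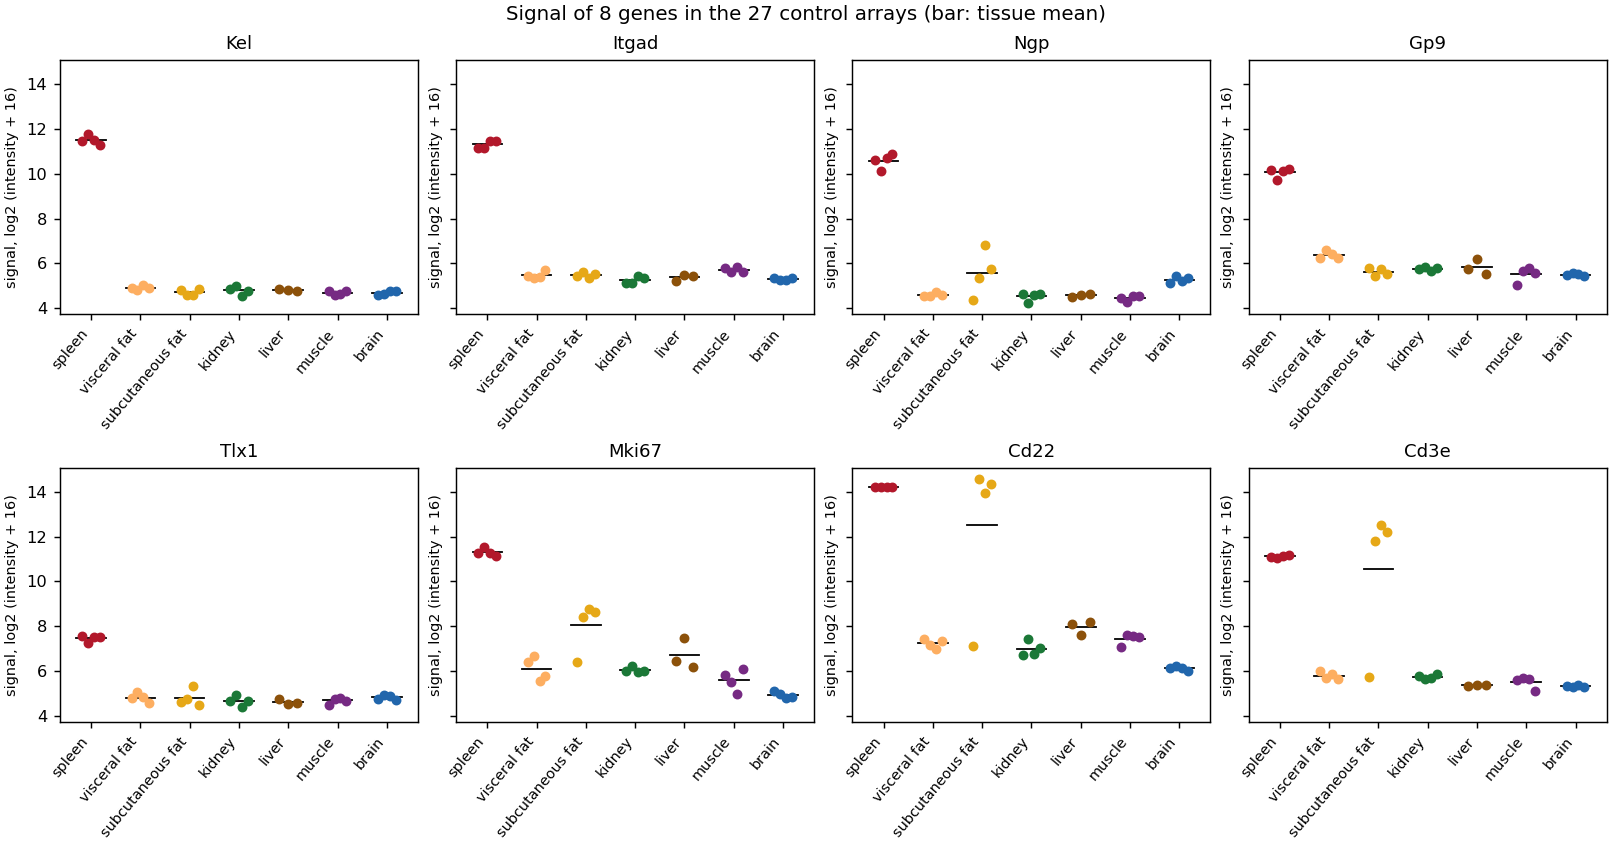
Level of 8 genes, as log2(intensity + 16), on the 27 control arrays by tissue, with points for arrays and bars for tissue means. Kel, Itgad, Ngp, Gp9 and Tlx1 were higher on all 4 spleen arrays than on any other array, and Mki67 was partly shared with subcutaneous fat. On 3 subcutaneous fat arrays Cd22 was near its spleen level and Cd3e was above it.

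Platelet and megakaryocyte genes formed the next group. Of 31 measured, 14 were highest in spleen with subcutaneous fat and 19 without, with median differences of 0.84 and 1.20. The shares over all genes were 7.88% and 14.0%. Tubb1, the tubulin of platelets, was at 11.66, 11.11, 11.74 and 11.77 in spleen and at most at 7.49 elsewhere, a difference of 4.36 ± 0.16. Ppbp, platelet basic protein, was at 11.59, 11.21, 11.69 and 11.60, a difference of 3.86 ± 0.26 to visceral fat. Gp9, a subunit of the von Willebrand factor receptor, was at 10.16, 9.73, 10.14 and 10.22, a difference of 3.70 ± 0.15. Spleen array 26, the highest for red cell genes, was the lowest for each of these, without reaching the other tissues. Itgb3 and Itga2b, the chains of the fibrinogen receptor, differed by 2.08 ± 0.14 and 1.08 ± 0.20. Pf4, platelet factor 4, was at 9.84 ± 0.28 (SD) in spleen and 9.00 in visceral fat and did not pass with subcutaneous fat (0.84 ± 0.30, limma adjusted p = 0.110) but did without it (adjusted p = 0.00245). Vwf, made by endothelium as well, was lower in spleen than in visceral fat, by 0.88.

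Granulocyte genes were high but uneven between the spleens. Of 29 measured neutrophil genes, 15 were highest in spleen with subcutaneous fat and 18 without, beside 7.88% and 14.0% of all genes. Ngp, neutrophilic granule protein, was at 10.60, 10.14, 10.70 and 10.90 in spleen and reached 6.81 in subcutaneous fat array 19, a difference of 5.01 ± 0.28. S100a9, a calprotectin subunit, was at 9.73, 9.83, 11.27 and 9.47, a difference of 4.11 ± 0.36, and its partner S100a8 differed by 3.11 ± 0.23. Retnlg, a resistin-like secreted protein of neutrophils, was at 7.46, 7.67, 10.35 and 7.12, a difference of 3.02 ± 0.45. In S100a9 and Retnlg array 27 stood above the other 3 spleens, while in Ngp it did not. The SE shares 1 spread among all tissues, so it does not give the spread of the spleens alone. The mean of the 29 genes was 7.83 in array 27 against 7.05 to 7.11 in the others. Primary granule genes were mixed, with differences of 1.48 ± 0.10 for Mpo and 0.79 ± 0.09 for Ctsg, which passed, and 0.16 for Elane and -0.38 for Prtn3, which did not. With each pair of tissues fitted apart, 9 neutrophil genes were called. The same genes in the swim spleens had a median difference of 0.18.

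Of 18 measured genes of basophils, eosinophils and mast cells, 4 were highest in spleen in both fits, beside 7.88% and 14.0% of all genes, and all 4 are known from eosinophils. The eosinophil genes Epx, Siglecf and Ear6 were not called. The median difference of the list was -0.14 in both fits. Ccr3, the eotaxin receptor, was at 8.23, 8.24, 8.51 and 8.45 in spleen and at most at 5.47 elsewhere, a difference of 3.07 ± 0.13. Il5ra, the interleukin 5 receptor, differed by 1.66 ± 0.33, and Prg3 and Prg2, the major basic proteins, by 0.99 ± 0.12 and 0.76 ± 0.11. The mast cell proteases Mcpt4, Cpa3 and Tpsb2 were highest in subcutaneous fat, above spleen by 3.55, 2.77 and 1.74.

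Cell division genes were high in spleen almost as a set. Of 56 measured genes of DNA replication and mitosis, 50 were highest in spleen with subcutaneous fat and 52 without, and 0 were lowest, with median differences of 1.86 and 2.44. The filter on low probe sets left 31 calls. Mki67, the proliferation antigen, was at 11.26, 11.53, 11.27 and 11.15 in spleen, at 8.43, 8.78 and 8.64 in subcutaneous fat arrays 18 to 20 and at 6.40 in array 17. Spleen lay above all of these, by 3.24 ± 0.37 over the tissue mean and by 4.65 ± 0.28 over liver when subcutaneous fat was left out. Cdc6, which loads the replicative helicase, differed by 3.30 ± 0.21, Ccna2, cyclin A2, by 3.20, Bub1, a spindle checkpoint kinase, by 3.16, and Rrm2, the regulated subunit of ribonucleotide reductase, by 3.01. Stmn1, a microtubule-binding protein abundant in neurons, was highest in brain, 1.39 above spleen. H1f5, a linker histone made in S phase, differed by 3.51 ± 0.26, though probes may be shared among histone genes.

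Red pulp macrophages and stroma gave fewer genes that were high in spleen alone. Itgad (probe set 10557928), the integrin chain of splenic red pulp macrophages, was at 11.13, 11.17, 11.46 and 11.48 in spleen and between 5.12 and 5.82 on every other array, subcutaneous fat included. Its difference was 5.59 ± 0.10 (limma adjusted p = 2.73e-22). Of the 26 listed genes of red pulp macrophages and iron recycling, 6 were highest in spleen with subcutaneous fat and 12 without. Over all genes the shares were 7.88% and 14.0%. Spic, the Ets factor that red pulp macrophages need, was at 10.29, 10.13, 10.31 and 10.45 in spleen, 9.46, 9.61 and 9.26 in subcutaneous fat arrays 18 to 20, 5.43 in array 17 and 6.57 to 6.97 in liver. The difference was 1.85 ± 0.53 with subcutaneous fat and 3.54 ± 0.13, to liver, without it. Treml4, a receptor of splenic macrophages and dendritic cells, differed by 2.33 ± 0.46 from liver, Vcam1, an adhesion molecule, by 1.77 ± 0.45, and Hmox1, which opens the haem ring, by 1.16 ± 0.23. Slc40a1, the iron exporter ferroportin, was at 10.51 ± 0.19 (SD) in spleen and 10.13 in liver and did not pass in either fit (limma adjusted p = 0.641 and 0.157). Cd163, the scavenger receptor for haemoglobin, and Cd5l were highest in liver, above spleen by 0.81 and 1.31. Without spleen arrays 26 and 27, or 27 and 28, the list had 3 calls, and with each pair of tissues fitted apart it had 2.

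Among marginal zone macrophage genes 0 of 8 were called by limma with subcutaneous fat, with 0 at an unadjusted p under 0.05, and 2 without. Over all genes the shares were 7.88% and 14.0%. Marco, a scavenger receptor, was at 8.44, 8.49, 8.85 and 8.35 in spleen and at 9.66, 9.88 and 9.32 in subcutaneous fat arrays 18 to 20, and its difference without that tissue was 2.89 ± 0.14. Cd209b, the lectin SIGN-R1, was at 7.41, 6.86, 7.53 and 7.29 in spleen, in the range of visceral fat at 6.49 to 8.13, and at 11.48 to 11.80 in those 3 arrays. It passed in neither fit.

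Of 29 genes of splenic stroma and patterning, 5 were highest in spleen with subcutaneous fat and 12 without. The shares over all genes were 7.88% and 14.0%. Tlx1, the homeobox factor without which no spleen forms, was at 7.56, 7.23, 7.51 and 7.53 in spleen and at most at 5.35 on any other array, a difference of 2.64 ± 0.15 (limma adjusted p = 3.05e-12). Coch, the matrix protein cochlin, was at 11.10, 10.90, 10.93 and 11.15 in spleen and next in brain at 6.42 to 7.28, a difference of 4.11 ± 0.22. Madcam1, the addressin of mucosal and marginal sinus endothelium, differed by 1.90 ± 0.35 with subcutaneous fat and 4.01 ± 0.09 without. Other patterning factors were not set apart, with differences of 0.34 for Tcf21, 0.13 for Nkx2-5, -0.14 for Nkx3-2 and -0.69 for Wt1. With each pair of tissues fitted apart 2 members of the list were called, and 3 without spleen arrays 27 and 28. Of 30 endothelial genes, 1 was called with subcutaneous fat, Icam2, an adhesion molecule that leukocytes carry too, and 3 without, beside 7.88% and 14.0% of all genes. In bulk tissue, fewer cells of a type and less RNA per cell cannot be told apart.

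Calls of lymphocyte genes depended on whether subcutaneous fat was in the comparison. Of the 26 B cell genes, 5 were highest in spleen with subcutaneous fat and 25 without, and the median difference went from 1.54 to 4.95. Of the 27 T cell genes the counts by limma were 0 (4 at an unadjusted p under 0.05) and 24, with median differences of 0.60 and 3.21. The counts with subcutaneous fat rested on its arrays, since 8, 8 and 9 B cell genes were called without array 17, 18 or 19, and 1 without either pair of spleen arrays named above, while 25 were called in the fit that kept only array 17. With each pair of tissues fitted apart, 0 B cell genes were called with subcutaneous fat. For T cells the count was 1 without array 19, and the filter on low probe sets left 9 T cell calls without subcutaneous fat.

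Cd22, the inhibitory co-receptor of B cells, was at 14.21 on all 4 spleen arrays, at 14.56, 13.96 and 14.36 in subcutaneous fat arrays 18 to 20, at 7.13 in array 17 and at most at 8.18 in the other 5 tissues. Its difference was 1.71 ± 0.93 with subcutaneous fat, which did not pass, and 6.39 ± 0.16 without it (limma adjusted p = 5.85e-19). Cd79a, a signalling chain of the B cell receptor, was at 11.31, 11.26, 11.25 and 11.27 in spleen and at 11.32, 11.43 and 11.30 in subcutaneous fat arrays 18 to 20, with 4.89 in array 17. Those 3 arrays overlapped the spleens, and the difference went from 1.54 ± 0.85 to 6.22 ± 0.20 without the tissue. Fcmr, the IgM Fc receptor, had the largest gain of all genes called without subcutaneous fat, from 1.65 ± 1.01 to 7.04 ± 0.11. Ms4a1, which encodes CD20, went from 1.91 to 6.42, Spib, an Ets factor of B cells, from 1.91 to 6.62, Fcer2a, the low-affinity IgE receptor CD23, from 1.53 to 6.13, and Pou2af1, the octamer coactivator, from 1.83 to 6.38. Of the 15 genes with the largest gains, 7 were in the B cell list, and 1, Ighm, passed in both fits. That list was chosen with earlier results of these data known, so the overlap is no test.

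On 12 of the 26 B cell genes every spleen array lay above all 23 other arrays, subcutaneous fat arrays 18 to 20 included. That pattern was held by 9.47% of all genes. Cr2, the complement receptor CD21 carried by marginal zone B cells and follicular dendritic cells, was at 12.40, 12.67, 12.57 and 12.31 in spleen against 11.22, 10.91 and 11.16 in subcutaneous fat arrays 18 to 20. The spleens lay above all of these, and the difference was 2.99 ± 0.83 with the tissue (limma adjusted p = 0.0205) and 6.88 ± 0.12 without. Among 13 genes of marginal zone B cells and germinal centres, 3 were called with subcutaneous fat and 7 without. Those 3 were Fcrl5, an Fc receptor-like protein, at 2.74 ± 0.31, Il9r, the interleukin 9 receptor, at 2.13 ± 0.46, and Plac8 at 1.73 ± 0.17. Without subcutaneous fat array 19 the list had 6 calls. Ebf1, a B lineage factor that adipocytes also express, was highest in visceral fat, 0.69 above spleen.

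Antibody genes were among those that kept large differences with subcutaneous fat. Jchain, which joins IgA and IgM, was at 11.99, 12.31, 11.72 and 12.23 in spleen and at 7.26, 9.43 and 9.31 in subcutaneous fat arrays 18 to 20. The groups did not overlap, and the difference was 4.33 ± 0.57 with the tissue and 6.10 ± 0.19 without. Ighm, the IgM heavy chain, lay between 12.95 and 13.10 in spleen and was at 11.57, 12.16 and 11.51 in those arrays, with differences of 2.80 ± 0.80 and 7.33 ± 0.13. Of 15 genes of plasma cells and immunoglobulins, 5 were called with subcutaneous fat and 12 without. Their number was 2 without spleen array 25, 26 or 28, 8 without subcutaneous fat array 17 and 10 without array 19. Kappa chain variable segments varied between spleens. Igkv4-55 was at 11.55, 11.87, 9.48 and 11.01 and another segment, read by probe set 10545182, at 11.22, 11.15, 11.17 and 11.96, with differences of 3.34 ± 0.64 and 3.33 ± 0.50, and neither passed with each pair of tissues fitted apart (adjusted p = 0.151 and 0.0783). Segments of this family can share probes, so the member is uncertain. Xbp1 and Sdc1, plasma cell genes that other tissues express, were higher in visceral fat and in liver, by 0.89 and 3.61.

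**Figure D3:**
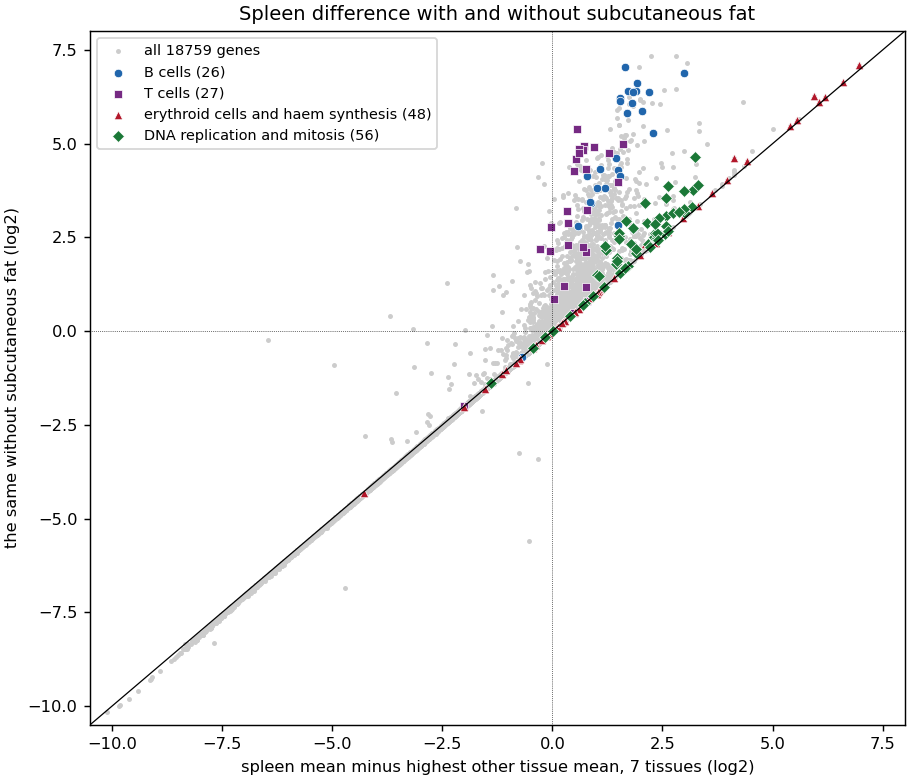
Difference of spleen to the highest other tissue (log2) with subcutaneous fat on the horizontal axis and without it on the vertical axis, for 18759 genes in grey, with 4 gene lists in colour and the line of equal values. Most B and T cell genes lay far above the line, with medians of 1.54 and 0.60 becoming 4.95 and 3.21, while erythroid genes stayed on or near it.

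The mean level of the 27 T cell genes lay between 9.18 and 9.36 in spleen, below the 9.55 to 9.92 of subcutaneous fat arrays 18 to 20, a difference that was not tested. Cd3e, a chain of the T cell receptor complex, was at 11.07, 11.06, 11.13 and 11.18 in spleen against 11.78, 12.54 and 12.18 in arrays 18 to 20 and 5.71 in array 17. Spleen lay below those 3 arrays and above every other array, and the difference went from 0.56 ± 0.83 to 5.38 ± 0.10 (limma adjusted p = 1 and 3.99e-21). Without subcutaneous fat, Cd8b1 differed by 4.94, Cd8a by 4.91, Cd5 by 4.83 and Cd4 by 2.88. Thy1, abundant in neurons, Satb1 and Bcl11b did not pass in either fit. Natural killer and cytotoxic genes gave 7 calls of 23 with subcutaneous fat and 21 without, beside 7.88% and 14.0% of all genes. Cd244a differed by 1.90 ± 0.23, the protease gene Gzma by 1.51 ± 0.23 and Klrb1c, which encodes NK1.1, by 1.43 ± 0.15 with that tissue, while Ccl5, a chemokine of cytotoxic cells, went from -0.33 ± 0.71 to 4.11 ± 0.12. The filter on low signal left 1 and 3 calls of this list.

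Antigen-presenting genes followed the lymphocytes. Of 27 dendritic cell genes, 6 were called with subcutaneous fat and 16 without, beside 7.88% and 14.0% of all genes. Clec9a, the receptor for dead cells on cross-presenting dendritic cells, was at 8.60, 8.68, 8.47 and 8.61 in spleen and next in liver at 6.74 to 7.07, a difference of 1.67 ± 0.24. Itgax, which encodes CD11c, differed by 1.55 ± 0.18 with and 3.21 without subcutaneous fat. Ccl22, a chemokine of migrating dendritic cells, was highest in subcutaneous fat, 2.39 above spleen. Without either pair of spleen arrays the list had 3 calls with subcutaneous fat. All 14 measured genes of MHC class II presentation were highest in spleen without subcutaneous fat, and 1, the promoter factor Rfx5, with it. The shares over all genes were 14.0% and 7.88%. Rfx5 was not called without subcutaneous fat array 17 or spleen array 25, 26 or 28, and 2 of the 14 were called without subcutaneous fat array 19. Cd74, the invariant chain, differed by 0.28 and 2.28, and H2-Oa, a chain of the B cell class II modulator, by 1.96 ± 0.87 and 7.04 ± 0.13.

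Genes of receptor signalling in leukocytes behaved alike, with 17 of 56 called with subcutaneous fat and 53 without, and median differences of 1.08 and 3.39. With each pair of tissues fitted apart 0 of the 56 were called in the first of these fits, and 11 were called without spleen array 28 and 26 to 28 when subcutaneous fat array 17, 18, 19 or 20 was left out. Syk and Btk, kinases next to the B cell receptor, differed by 1.49 and 1.55 with and 3.55 and 4.15 without subcutaneous fat. Prkcb, Rasgrp1 and Prkcq were highest in brain, brain and muscle, above spleen by 0.47, 0.59 and 0.68. Of 31 chemokine and homing receptors, 3 were called with subcutaneous fat, Ccr3, Itga4 and Ackr2, and 21 without, beside 7.88% and 14.0% of all genes. That 3 was 5 and 6 without subcutaneous fat array 18 or 20, and 1 with each pair of tissues fitted apart. Of 49 transcription factors of blood cells the counts were 12 and 37. The 12 were Gata1, Nfe2, Gfi1b, Klf1, Tal1, Zfpm1, Spic, Myb, Lmo2, Lyl1, Irf5 and Gfi1, and the count was 19 and 23 without subcutaneous fat array 18 or 19 and 7 with each pair of tissues fitted apart. Among 22 genes of stem and progenitor cells 5 were called with subcutaneous fat and 8 without, beside 7.88% and 14.0% of all genes, and 1 was lowest. Myb at 2.49 ± 0.32 and Lmo2 at 1.15 ± 0.23 were among the 5, while Kit, Cd34, Meis1 and Hoxa9 were highest in brain, visceral fat, brain and kidney. In a list of 16 chaperone and universally expressed genes, 2 were called with subcutaneous fat and 6 without. The shares over all genes were 7.88% and 14.0%. With values as deposited these counts were 0 and 2, and with arrays centred on medians 0 and 1.

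**Figure D4:**
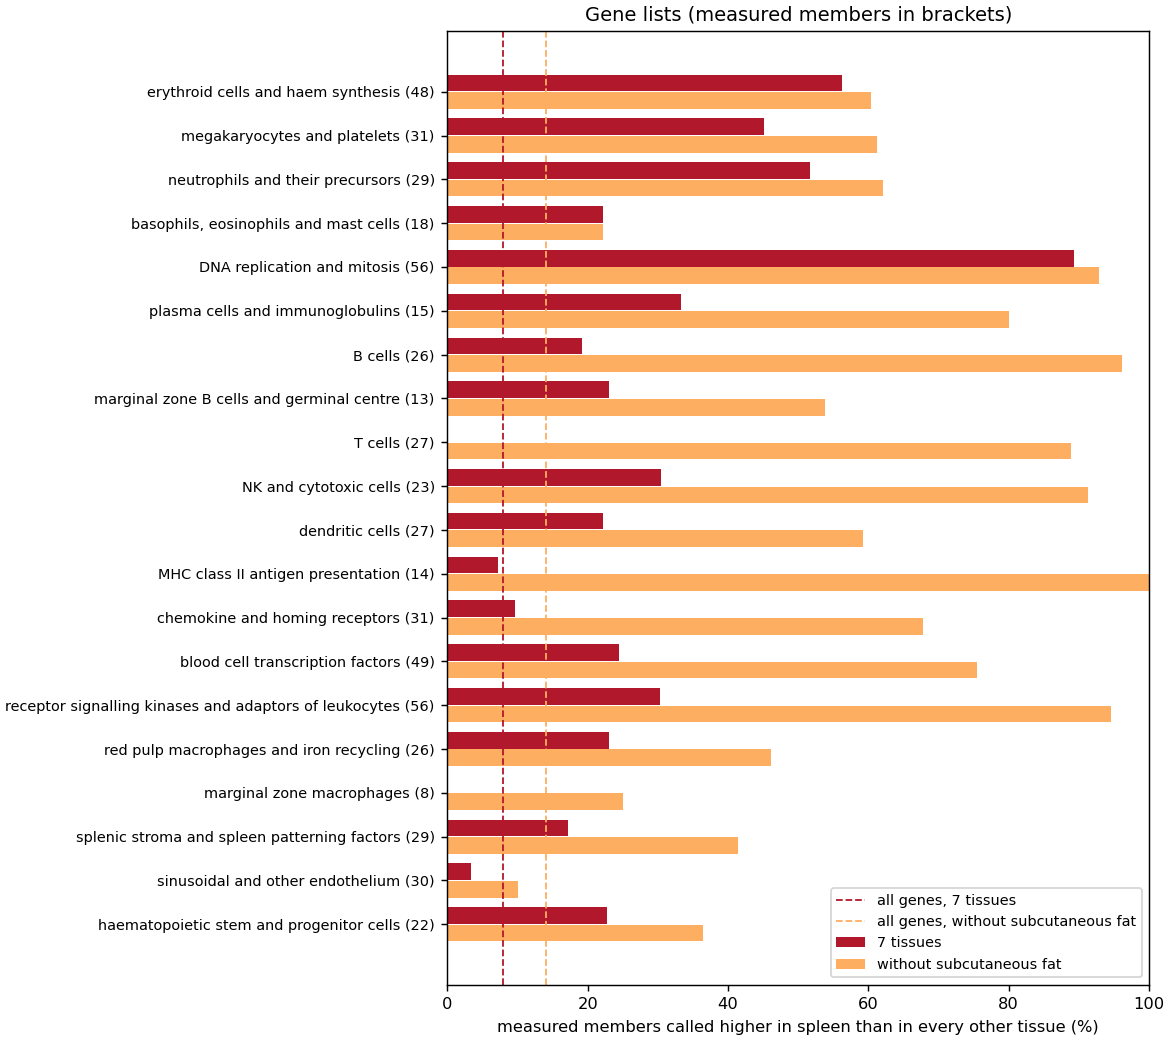
Share of the measured members of the gene lists drawn (%) called highest in spleen, with subcutaneous fat (red bars) and without it (orange bars). Dashed lines mark the shares over all genes of 7.88% and 14.0%. Lists of pancreatic cells, high endothelial venules, fatty acid oxidation, the respiratory chain, universally expressed genes and the other organs are not drawn. Erythroid, platelet, neutrophil and cell division lists had bars of more similar length in the 2 fits than the lymphocyte, MHC class II and leukocyte signalling lists.

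MicroRNA genes are read by their precursor or primary transcript on such arrays, and those named here were chosen after their values were seen. Mir15a was at 9.71 ± 0.15 (SD, n = 4) in spleen and differed by 1.26 ± 0.10, Mir144 was at 5.58 ± 0.20 and differed by 1.35 ± 0.11, and Mir155 was at 6.41 ± 0.22 and differed by 0.54 ± 0.16, all passing by limma. Mir142 was at 6.49 ± 0.28 and went from 0.52 ± 0.29 (limma adjusted p = 0.652) with subcutaneous fat to 1.70 ± 0.10 without. Mir16-2 differed by 0.53 ± 0.12 from brain. Mature sequences from RefSeq on GRCm38.p6, shown to let these genes be grouped by seed, carry the seed (bases 2 to 8) in capitals. Those of Mir15a and Mir16-2 share AGCAGCA, and the others each have a seed of their own.
miR-15a-5p: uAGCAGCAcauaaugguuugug
miR-16-5p: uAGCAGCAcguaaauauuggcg
miR-144-3p: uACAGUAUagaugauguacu
miR-142a-3p: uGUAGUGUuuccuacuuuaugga
miR-155-5p: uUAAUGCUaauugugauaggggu

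At the low end of the spleen profile, Gpd1, the glycerol-3-phosphate dehydrogenase that links glycolysis and lipid synthesis, was at 6.20, 6.99, 5.75 and 6.19 in spleen and at least at 9.67 on every other array, 3.53 below brain, the next lowest tissue (SE 0.24, limma adjusted p = 2.80e-09). Bnip3, a mitochondrial receptor for autophagy, was at 6.44, 6.58, 6.54 and 6.43 in spleen and at least at 9.62 elsewhere, 3.16 below brain (SE 0.19). Me1, malic enzyme, and Gpt2, a mitochondrial alanine aminotransferase, lay 2.68 and 2.59 below brain, Pdk2, a kinase that restrains pyruvate dehydrogenase, 2.28 below subcutaneous fat, and Gstm1, a glutathione transferase, 2.11 below muscle. Of the 510 lowest genes, 172, or 0.917% of all genes, were at least 2-fold lower. On 13 of the 15 genes furthest below the next tissue all spleen arrays lay under all others, against 4.32% of all genes, and Agt and Grb14 were the exceptions. Choosing the 15 by size on these same arrays favours such a separation, so the 2 shares are not a test. Agt, angiotensinogen, was at 4.73, 7.13, 5.44 and 4.78 in spleen and overlapped subcutaneous fat arrays 18 and 19 at 6.57 and 7.05. Array 26, high in Alb, was also the highest spleen for Gpd1, Ndrg2 and Gstm1, at 6.99, 9.16 and 8.59, and its part in these values was not tested. All 15 were called lowest in the swim arrays too.

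Respiratory chain genes were low as a list. Of 39 measured subunits, 25 were lowest in spleen against 2.72% of all genes, 0 were highest, and 38 had their lowest mean there, with Atp5k the exception. Their mean level was 9.36, 9.39, 9.37 and 9.34 in spleen, between 9.59 and 10.81 in subcutaneous fat, from 9.99 to 10.15 in brain and between 11.28 and 11.35 in muscle. The spleens lay below every other array, and subcutaneous fat array 19, with lymph node transcripts, was the next at 9.59. Ndufc1 and Ndufb9, subunits of complex I, lay 1.42 and 1.39 below subcutaneous fat, and Cyc1, of complex III, 0.89 below brain. Spleen also had the lowest mean for 38 of the 39 with the values as deposited and with arrays centred on their medians, and the median difference to the next lowest tissue was -0.62, -0.59 and -0.48 under the 3 scalings, but 2 and 4 then passed, 3 passed with each pair of tissues fitted apart, and 36 passed with subcutaneous fat left out. Fatty acid oxidation genes differed from this, since spleen had the lowest mean for 4 of 22. Of these Echs1, an enoyl-CoA hydratase, passed, and 2 passed without subcutaneous fat array 17, 18 or 20 or spleen array 26.

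**Figure D5:**
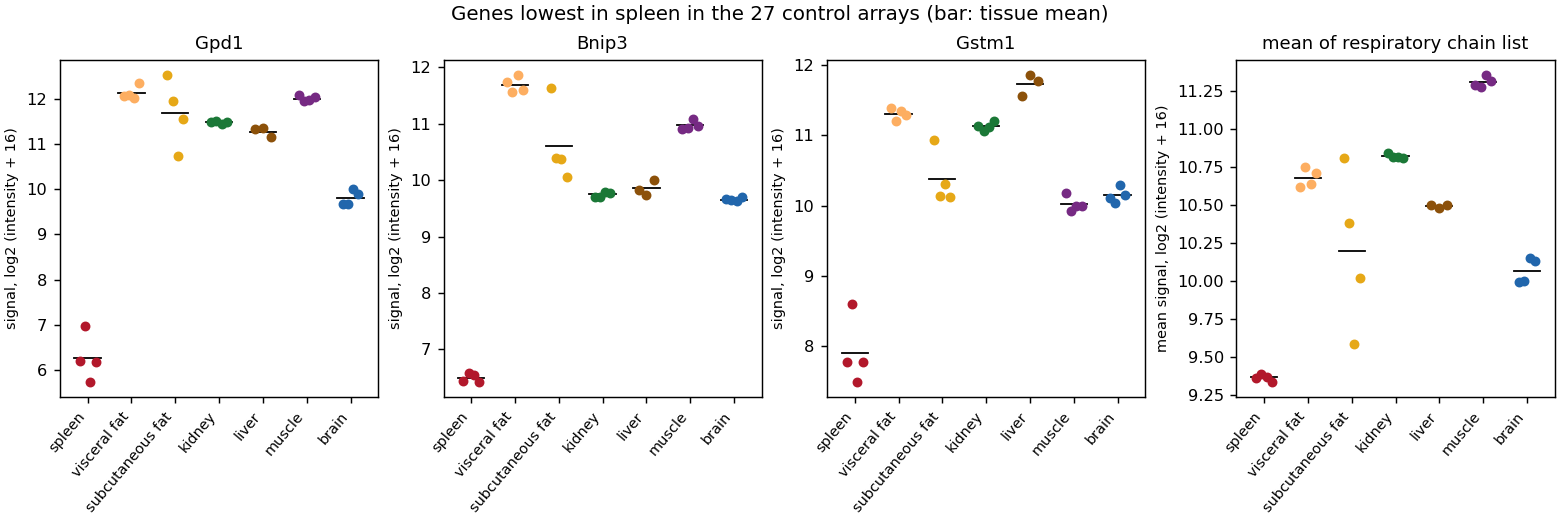
Level of Gpd1, Bnip3 and Gstm1 and the mean level of 39 respiratory chain genes, as log2(intensity + 16), on the 27 control arrays, with points for arrays and bars for tissue means. The 4 spleen arrays lay below all others in each panel, and vertical axes start above 0 and differ between panels.

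Of 21 genes of pancreatic acinar and islet cells, 10 were highest in spleen in both fits, beside 7.88% and 14.0% of all genes. Their mean level was 6.07, 5.64, 7.26 and 6.84 in spleen arrays 25 to 28 and between 5.21 and 5.53 on all 23 others. Cpa1, a carboxypeptidase of the acinar cell, was at 7.37, 6.37, 9.28 and 8.99 in spleen and at most at 5.62 elsewhere, a difference of 2.62 ± 0.36. The islet hormone genes Gcg, Ins2 and Sst had differences of -0.18, -0.19 and -6.14, none called. In the swim arrays 6 of the 21 were called, beside 13.2% of all genes, with a median difference of 0.30. The control median was 1.01 with subcutaneous fat. Control calls numbered 7 without arrays 27 and 28, 1 with each pair of tissues fitted apart and 0 with the filter on low probe sets. Their source was not tested.

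In the swim arrays 2482 genes, or 13.2%, were highest in spleen, among them 1327 of the 1478 control calls, and spleen had the highest mean for 1458 of the 1478. Differences there were 5.94 for Kel, 4.84 for Itgad, 2.13 for Tlx1, 3.84 for Coch, 3.29 for Mki67 and 1.95 for Ngp. B cell genes had a median difference of 3.71 in the swim arrays with subcutaneous fat, and T cell genes of 2.70. Swim subcutaneous fat arrays stood apart too, with Glycam1 at 11.84 and 13.67 in arrays 22 and 23 and at 5.63 and 5.92 in arrays 21 and 24. The B cell list averaged 8.46 and 9.68 in arrays 22 and 23 against 6.00 and 5.76 in arrays 21 and 24, and between 10.98 and 11.24 in the swim spleens.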

How the data were processed

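Per the file headers and the values, the deposited table held linear intensity for 25917 probe sets. PLIER and limma appear in the submitters' processing notes. Their versions and settings, and the build, are not given in the sources used here, so probe sets carry no coordinates. Arrays were not on a common distribution as deposited. For the 27 control arrays, log2(signal + 16) was quantile normalized (again over 23 arrays without subcutaneous fat, and over 27 swim arrays). Median intensity per array lay between 45.92 and 118.65, and array numbers limit the precision.

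Probe sets with 1 gene symbol (21086) were used, and those with several (1867) or none (2964) left out. A gene took the probe set with its highest mean, with no filter. One mean per tissue was fitted in R 4.3.3 with limma 3.58.1 (lmFit, eBayes; statmod 1.5.0), two-sided, and p-values were adjusted by Benjamini-Hochberg for 18759 genes. A gene with contrasts of mixed sign was not called. Adjusted p-values and SE come from this fit, which shares 1 spread among tissues. The method was tested on simulated data.

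Lists held 861 names, of which 760 matched, 2 by synonym. Named genes were the 30 largest differences, the 15 largest gains without subcutaneous fat, the 15 furthest below the next tissue, and the largest, smallest and defining list members. Members and lists were chosen with earlier results of these data known. Alternatives were other scalings, pseudocounts (1 and 64), a filter, probe set means, other spreads and arrays left out; leaving out pairs of spleen arrays was added after seeing the data. Promoters were matched by symbol, and motifs were sought on both strands.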

Additional observations from a re-analysis of the deposited data

Results flagged for a closer look

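Of 90 groups of 4 spleen values looked at, 5 held a value far from the other 3, and chance alone flags about 1 in 20 such groups. Spleen array 26 was the highest for Gata1, at 9.83 against 9.62 to 9.66, and the lowest for Tubb1, at 11.11 against 11.66 to 11.77, and for Gp9, at 9.73 against 10.14 to 10.22. Array 28 was the highest for a kappa chain variable segment, read by probe set 10545182, at 11.96 against 11.15 to 11.22. Array 27 had the highest mean of the neutrophil list, at 7.83 against 7.05 to 7.11. Among probe sets left out of the gene tests, probe set 10573054, which has no gene symbol here, was at 10.96 in spleen and next in kidney at 5.07, a difference of 5.88. In all, 170 of 2964 probe sets without a symbol and 198 of 1867 with several were highest in spleen by limma.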

How the results depend on the processing

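No paired analysis was possible because the array numbers in the labels are unique, groups share none and no pairing is stated. A block on the place of an array in its tissue's run of numbers would take a pairing from order alone and was not run. The count of genes highest in spleen with subcutaneous fat, 1478, became 818 with values as deposited, 769 with each pair of tissues fitted apart and 2406 with subcutaneous fat arrays 18 to 20 left out, and with single arrays left out it ranged from 1298 (spleen array 25) to 1776 (subcutaneous fat array 19). The count without subcutaneous fat ranged from 2549 to 2635 with single arrays left out and stayed within 1.5 times in every alternative run. The count of genes lowest in spleen, 510, became 116 as deposited, 298 with arrays centred on medians, 897 with array weights, 134 with each pair of tissues fitted apart, 1278 without subcutaneous fat arrays 18 to 20, 1399 without subcutaneous fat, and 274 and 267 without spleen arrays 26 and 27 or 27 and 28 (both chosen after seeing the data). Single arrays left out gave 397 (spleen array 27) to 713 (subcutaneous fat array 19). The swim count became 1324 as deposited. Fewer arrays or tissues enter some of these by construction, and otherwise the cause was not tested. Centring on medians moved the median of spleen less the mean of the other tissues over all genes from -0.07 to -0.21. Among the named genes, 1153 of 1155 gene and setting pairs for the 30 largest, 506 of 506 for the gains and 594 of 600 for the lowest kept their call, and none changed sign. Pairs in which the filter on low probe sets removed the gene are not counted here. Some of the 30 largest and some of the gains were removed in that way. Losses outside Igkv were Pcsk6, Aspa, Agt and Grb14 with pairs fitted apart (adjusted p = 0.0589, 0.0964, 0.541 and 0.346) and Agt and Grb14 without spleen arrays 27 and 28 (0.193 and 0.0807). Genes of low signal on the array, as Tlx1 and the mast cell and islet genes outside their tissue, have compressed differences on this scale.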

Other observations

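In 6 tissues the neutrophil genes S100a9 and Retnlg were highest in arrays of the same place in their tissue's run of numbers. S100a9 was highest within its tissue in arrays 27 of spleen (11.27), 3 of visceral fat (6.15), 19 of subcutaneous fat (7.10), 11 of kidney (5.92), 43 of muscle (5.96) and 35 of brain (5.72), each the array of the same place in its tissue's run of numbers. Retnlg was highest in the same 6 arrays, at 10.35, 5.39, 5.80, 5.71, 5.15 and 5.53. Outside spleen these Retnlg levels were low on this scale. Of the 29 measured neutrophil genes, these arrays were the highest of their tissue for 17 in spleen, 11 in visceral fat, 18 in subcutaneous fat, 13 in kidney, 15 in muscle and 15 in brain. In visceral fat array 2 was the highest for 9, and the list means of arrays 2 and 3 were 5.876 and 5.874. Liver holds arrays 49, 50 and 52 here, and array 50 was the highest for 14. The labels do not say whether such arrays share a mouse, the genes were chosen after their values were seen, and the pattern was not tested.

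Other promoter motifs were counted in the same windows. The core of the myeloid and lymphoid factor PU.1, GAGGAA, was present in 18 of 27 promoters of 26 neutrophil genes, or 66.7%, 8 of 26 promoters of 21 B cell genes, or 30.8%, and 10 of 53 erythroid promoters, or 18.9%, beside 28.3% of all promoters. The octamer ATTTGCAT of B cell promoters was present in 2 of 26 B cell promoters, or 7.69%, those of Blnk and Vpreb3, and in 1.74% of all.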
